A study of Limodorum abortivum with 6 samples.

Results

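Mitochondria of plant roots oxidise the carbon that reaches the cell. The citrate cycle feeds electrons into the respiratory chain of the inner membrane, and the chain drives the synthesis of ATP. Most of their proteins are encoded in the nucleus, made in the cytosol and imported through translocases of both membranes, while a small organellar genome is read with the help of nuclear-encoded ribosomal proteins, helicases and pentatricopeptide repeat (PPR) proteins, which bind single organellar RNAs and are needed to edit, splice or stabilise them. Orchid roots that house a mycorrhizal fungus are thought to take up organic carbon and nitrogen from it. How much of this material mitochondria metabolise was not measured here.

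The genes described here were plant genes annotated with a mitochondrial protein and not with a plastid one in roots of the mixotrophic orchid *Limodorum abortivum*. They were chosen by the word "mitochondrial", without "chloroplastic", in the UniProt description of each gene, and 3 identifiers that had been set aside were not used, of which 0 met this rule. The rule gave 48 of the 1159 annotated plant genes used here (called the listed plant genes), out of 100005 assembled genes in the count files, and all 48 were found there. The listed plant genes were a small part of the plant transcripts tested by the authors, so the 48 are not the full mitochondrial set of this orchid. By role, 8 belonged to the respiratory chain and citrate cycle, 2 were other metabolic enzymes, 7 acted in protein import, folding and the membranes, 13 in the organelle's ribosome, RNA and DNA, and 18 were PPR proteins. The plant taxon given for a gene was *Dendrobium catenatum* for 25, *Phalaenopsis equestris* for 12, *Apostasia shenzhenica* for 2, Epidendroideae for 1 and a taxon outside the orchids, or wider than them, for 8. The 48 genes came from 35 Trinity genes, the loci of the assembly, and 29 of them shared a Trinity gene with another listed gene. No sequences are shown, because none were given with the counts.

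Roots of wild adult plants of a single site were compared, with 3 RNA-seq libraries of mycorrhizal roots, named LM3, LM4 and LM6, and 3 of roots without mycorrhiza, named LS2, LS3 and LS6. LM roots are the thicker and darker ones, and sections were used to check their status. Both kinds of root were exposed to other soil microbes as well. The labels say that root segments came from different individuals, but not which individuals made up which library or whether a plant gave both kinds of root, so p-values measure the spread between these 6 libraries. No list of root cell types or fungal genes could be looked up in the listed plant genes. In such bulk samples, fewer cells of a type and less RNA per cell cannot be told apart.

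The gene counts of a library summed to between 5364549 and 6019195 in LM and between 4748078 and 5809054 in LS. Reads that could not be assigned to 1 gene because they overlapped several were between 10.8% and 11.7% of gene and ambiguous reads in LM, against between 19.5% and 29.3% in LS. The groups did not overlap (two-sided exact permutation test on group means, p = 0.1, the smallest p that 3 libraries against 3 allow). This bears on loci with more than 1 gene model, and its part in the results below was not tested. The members took 4.62%, 5.47% and 5.09% of the counts on listed plant genes in LM3, LM4 and LM6, against 3.09%, 4.76% and 4.68% in LS2, LS3 and LS6. LS2 was the lowest of all and the groups overlapped. The 95% Wilson intervals of these shares extended by no more than 0.114 percentage points on each side for the members and 0.0344 for the ambiguous reads, and like all intervals here they cover counting error only.

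Levels are given as CPM, counts per 1000000 reads aligned to plant transcripts after TMM scaling, in the order LM3, LM4, LM6 and LS2, LS3, LS6. CPM are not divided by gene length, so they compare libraries and not genes. 1 CPM was between 3.81 and 4.72 reads. Fold changes are log2 values of LM over LS from the quasi-likelihood test of edgeR, with approximate standard errors (SE) and with Benjamini-Hochberg adjustment over all 719 listed plant genes that passed its filter on low counts. Of the 48 members, 28 passed that filter and 20 did not.

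No member was called at an adjusted p under 0.05. The share of called genes among all listed plant genes tested was 0%, so this count says nothing particular about mitochondrial genes, and the smallest adjusted p of a member was 0.186. At an unadjusted p under 0.05, 3 of the 28 tested members were higher in LM and 1 was lower, beside 8.34% and 7.37% of all listed plant genes tested. These member counts changed to 1 higher and 0 lower without LM4, without LS2 or without LS6, to 2 and 2 without LM6 and to 2 and 0 without LS3. The libraries of LM lay wholly above those of LS for 4 tested members and wholly below for 2, beside 12.9% and 11.5% of all listed plant genes tested. A group of 2 libraries separates more easily than a group of 3, and without LM3 the count of separated members was 10 above and 3 below, while the count below was 5 without LM6 or LS2 and 4 without LS3 or LS6. The share of all listed plant genes separated in these leave-outs is not given here, so these counts say nothing particular about the members. The median log2 fold change was 0.04 over the tested members and -0.01 over all listed plant genes tested, with 14 members higher and 14 lower by sign, 17 and 11 when plant reads alone set the scale, and 9 and 19 when all genes of the files did. Over the listed plant genes tested, 350 were higher and 369 lower by sign, 386 and 333 with plant reads alone, and 252 and 461 with all genes. DESeq2, which called 71 of 1137 listed plant genes, called 1 member, the PPR gene MSTRG.1220, and limma-voom called 0.

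**Figure D1:**
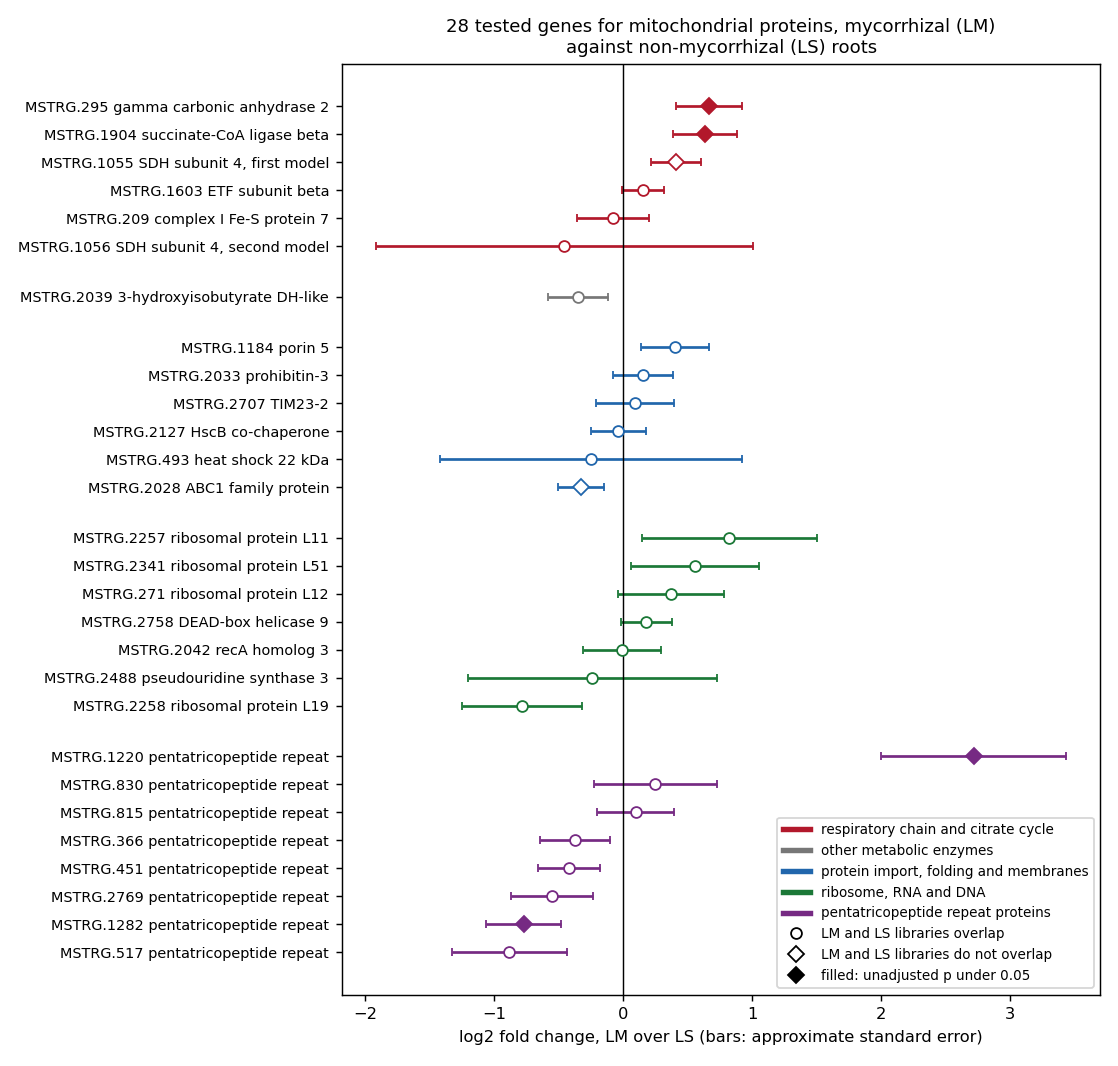
Log2 fold change of LM over LS (x axis) for the 28 tested members (y axis), with approximate standard errors as bars, colours for the role groups, diamonds for genes with separated groups and filled symbols for an unadjusted p under 0.05. Genes of the respiratory chain and citrate cycle had a median of 0.28 and PPR genes of -0.40, and MSTRG.1220 stood alone at 2.72.

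Among the genes of the respiratory chain and citrate cycle, 3 of the 6 tested had all LM libraries above all LS libraries. Over all listed plant genes tested, 12.9% did so. Of the 3 genes, 2 had an unadjusted p under 0.05, beside 8.34% of all listed plant genes tested that were higher in LM at that threshold. None passed the adjusted threshold. MSTRG.1055 among them was a model of a split locus, whose summed counts overlapped between the groups. Gamma carbonic anhydrase 2 (MSTRG.295) is a subunit of the matrix-facing domain that plant complex I carries, the beta subunit of succinate-CoA ligase (MSTRG.1904) belongs to the citrate cycle enzyme that makes succinate together with ATP, and subunit 4 of succinate dehydrogenase (MSTRG.1055 and MSTRG.1056) anchors complex II, which oxidises that succinate, in the membrane.

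MSTRG.295 had 197, 274 and 229 CPM in the LM libraries, against 113, 182 and 147 CPM in the LS libraries. All LM values were higher, although LM3 and LS3 lay close together. The mean was 233 ± 38.5 CPM in LM and 147 ± 34.3 CPM in LS (SD, n = 3 each), a log2 fold change of 0.66 (SE 0.26, edgeR unadjusted p = 0.043, adjusted p = 0.289, with adjusted p between 0.202 and 0.594 over the alternatives). MSTRG.1904 had 376, 507 and 350 CPM in LM, against 226, 289 and 281 CPM in LS. LM4 was the highest library and LS2 the lowest, and the groups did not overlap. Its mean was 411 ± 84.5 CPM in LM and 265 ± 34.3 CPM in LS (SD, n = 3 each), a log2 fold change of 0.63 (SE 0.25, edgeR unadjusted p = 0.043, adjusted p = 0.289, between 0.164 and 0.598 over the alternatives). Leaving out single libraries kept the log2 fold change of MSTRG.295 between 0.53 and 0.82 and that of MSTRG.1904 between 0.47 and 0.74.

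The locus for succinate dehydrogenase subunit 4 was split between a pair of gene models. The model MSTRG.1055 had 87.6, 121 and 104 CPM in LM, against 78.0, 82.6 and 74.9 CPM in LS. The LM libraries were all higher, with LM3 just above LS3 (log2 fold change 0.41, SE 0.19, edgeR unadjusted p = 0.077, adjusted p = 0.360). The model MSTRG.1056 had 0.226, 78.6 and 8.35 CPM in LM, against 38.2, 52.5 and 28.6 CPM in LS. In counts these were 1, 312 and 39 in LM and 177, 248 and 109 in LS. The LS values lay between those of LM4, the highest, and LM6, while LM3 was near 0 (log2 fold change -0.46, SE 1.46, edgeR adjusted p = 0.896). With the counts of both models added, the locus had 87.8, 200 and 113 CPM in LM, against 116, 135 and 103 CPM in LS, and the groups overlapped (log2 fold change 0.18, SE 0.35, edgeR adjusted p = 0.818). The separation seen for MSTRG.1055 was not found for the summed locus.

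The remaining genes of this group had levels that overlapped between LM and LS. Iron-sulfur protein 7 of NADH dehydrogenase (MSTRG.209), a core subunit of complex I that carries an iron-sulfur cluster near the ubiquinone site, had 63.1, 84.9 and 77.0 CPM in LM, against 105, 56.7 and 76.7 CPM in LS. The highest and the lowest library were both LS (log2 fold change -0.08, SE 0.28, edgeR adjusted p = 0.903). MSTRG.1603 is the beta subunit of the electron transfer flavoprotein, which passes electrons from the breakdown of branched-chain amino acids towards ubiquinone. It had 94.8, 110 and 97.2 CPM in LM, against 94.8, 87.6 and 89.6 CPM in LS. LM3 and LS2 were equal to this precision and the log2 fold change was 0.15 (SE 0.17, edgeR adjusted p = 0.665). MSTRG.208 and MSTRG.1905, further models of iron-sulfur protein 7 and of succinate-CoA ligase, were not tested. MSTRG.208 had 4, 1 and 3 counts in LM, against 0, 4 and 5 counts in LS, and MSTRG.1905 had 3, 3 and 4 counts in LM, against 5, 4 and 2 counts in LS.

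**Figure D2:**
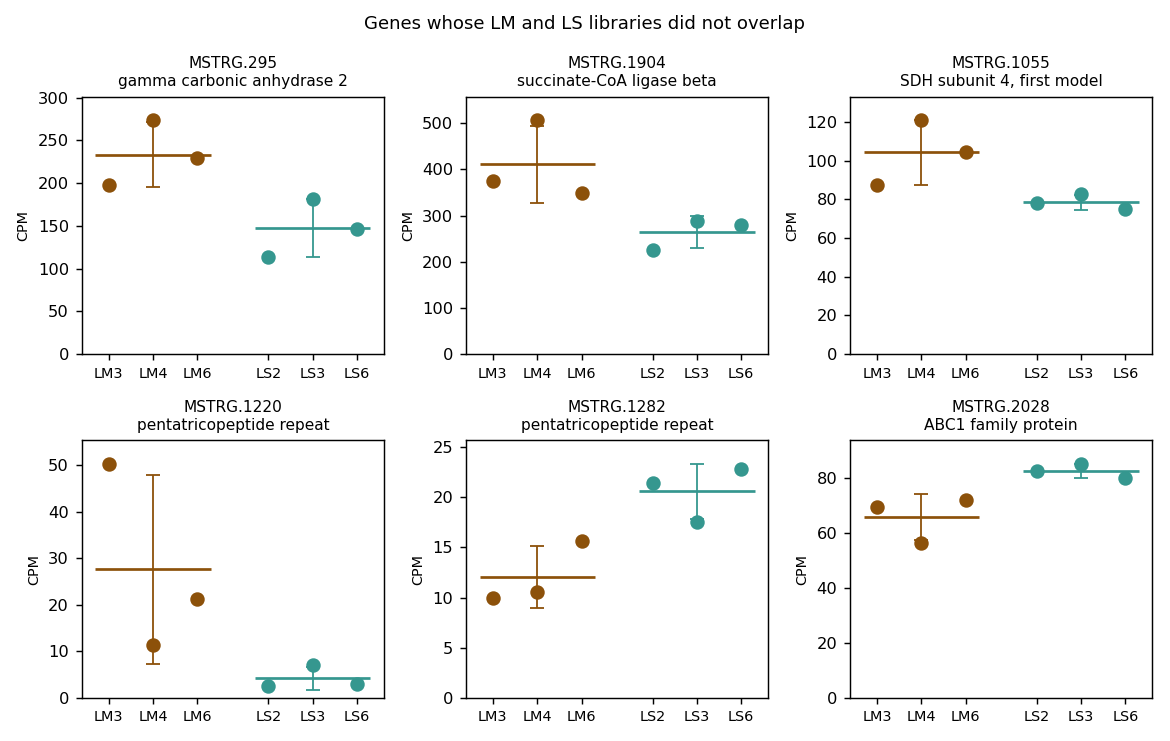
CPM (y axis) in each library (x axis, LM at left and LS at right) of the 6 tested members with separated groups, with the group mean as a line and its SD as a bar (n = 3 each). The upper row holds the 3 genes of the respiratory chain and citrate cycle with higher LM levels, and the lower row the PPR gene MSTRG.1220, with LM3 at 50.2 CPM, and the genes with lower LM levels, MSTRG.1282 and MSTRG.2028.

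The median log2 fold change of the 6 tested genes of the respiratory chain and citrate cycle was 0.28, with 4 higher and 2 lower by sign, and it was 0.36 when the plant reads alone set the scale (5 and 1) and 0.03 when all genes of the files did (3 and 3). The scaling on all genes moved the median of the listed plant genes by -0.25. Relative to the median of all listed plant genes, the group stood at 0.29, 0.30 and 0.30 in these 3 fits. Without single libraries its median was between 0.20 and 0.36.

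Other listed genes assigned to the oxidative phosphorylation pathway, whose descriptions do not hold the word mitochondrial, numbered 8, of which 6 were tested. None was called at an adjusted p under 0.05. Of the 6, 3 had an unadjusted p under 0.05 and LM libraries wholly above the LS libraries. All 3 were accessory subunits of complex I, as were most tested genes of this list. Over all listed plant genes tested, 8.34% were higher in LM at that unadjusted p and 12.9% had LM libraries wholly above the LS libraries. The gene for alpha subcomplex subunit 2 (MSTRG.1415) had 36.7, 61.5 and 32.5 CPM in LM, against 22.7, 25.2 and 22.9 CPM in LS. The LS values lay close together and LM4 stood highest (log2 fold change 0.88, SE 0.30, edgeR unadjusted p = 0.027, adjusted p = 0.256). The gene for beta subcomplex subunit 9 (MSTRG.293) had 51.1, 60.0 and 59.7 CPM in LM, against 42.3, 39.6 and 43.1 CPM in LS. Its spread within each group was small (log2 fold change 0.45, SE 0.17, edgeR unadjusted p = 0.039, adjusted p = 0.285). The gene for alpha subcomplex subunit 8 (MSTRG.1597) had 246, 330 and 231 CPM in LM, against 112, 200 and 171 CPM in LS (log2 fold change 0.74, SE 0.30, edgeR unadjusted p = 0.046, adjusted p = 0.299).

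A further gene annotated with alpha subcomplex subunit 8, MSTRG.1598, had a log2 fold change of 0.60 with overlapping libraries (edgeR adjusted p = 0.457). It carried the same descriptions as MSTRG.1597, and whether both are models of a single locus was not tested. The gene for subunit 6b-3 of cytochrome c oxidase (MSTRG.611), which belongs to complex IV, had 38.0, 77.9 and 56.7 CPM in LM, against 54.9, 32.0 and 56.2 CPM in LS. The gene for COX15 (MSTRG.1176), needed to make the heme A of complex IV, had 41.2, 44.1 and 69.3 CPM in LM, against 86.8, 57.2 and 58.6 CPM in LS. Neither separated the groups, with log2 fold changes of 0.27 and -0.39. The median of the 6 genes was 0.52 and stayed above 0 with plant reads alone (0.60) and with all genes (0.28). No test was made of the list as a whole. The authors reported oxidative phosphorylation among the pathways enriched in genes lower in mycorrhizal roots, over their larger set of plant transcripts. The listed plant genes are a part of that set, so these medians and that result do not cover the same genes.

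**Figure D3:**
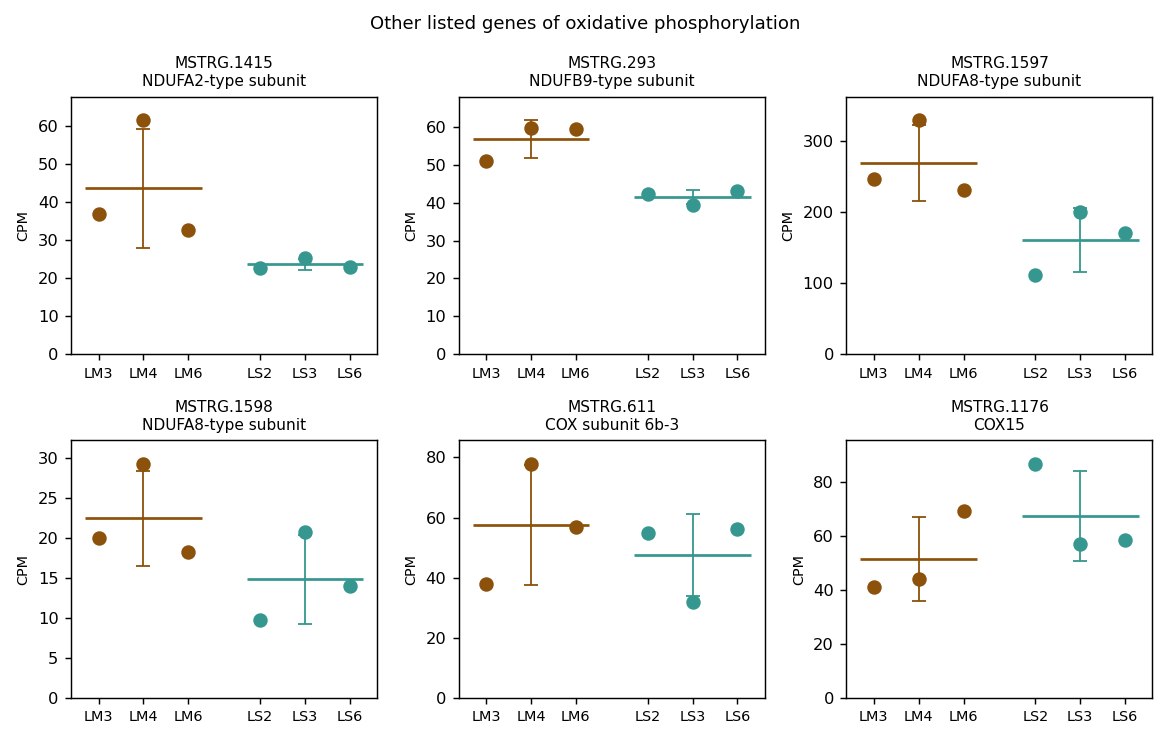
CPM (y axis) in each library (x axis, LM at left and LS at right) of the 6 tested listed genes of oxidative phosphorylation outside the members, with group means as lines and SDs as bars (n = 3 each). LM lay wholly above LS for MSTRG.1415, MSTRG.293 and MSTRG.1597, subunits of complex I, while MSTRG.1598 and the complex IV genes MSTRG.611 and MSTRG.1176 overlapped.

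Genes for protein import, folding and the membranes showed small differences. Of the 6 tested, 0 had an unadjusted p under 0.05, 1 had all LM libraries below all LS libraries, and 3 were higher and 3 lower by sign. Of all listed plant genes tested, 8.34% were higher and 7.37% lower at that p, and 11.5% had LM libraries wholly below. The inner membrane translocase TIM23-2 (MSTRG.2707), the channel through which proteins with a presequence enter the matrix, had 104, 213 and 159 CPM in LM, against 129, 160 and 158 CPM in LS. LM3 was the lowest library and LM4 the highest, so the LM values enclosed those of LS (log2 fold change 0.09, SE 0.30, edgeR adjusted p = 0.896). Porin 5 (MSTRG.1184), an outer membrane channel for metabolites, had 42.5, 50.1 and 66.6 CPM in LM, against 31.1, 43.8 and 45.4 CPM in LS. LM3 lay below LS3 and LS6 (log2 fold change 0.40, SE 0.26, edgeR adjusted p = 0.471). Prohibitin-3 (MSTRG.2033), which forms ring-shaped scaffolds in the inner membrane, had 47.1, 76.1 and 56.5 CPM in LM, against 52.9, 51.4 and 57.0 CPM in LS. LM4 alone lay above the LS range and LM3 below it (log2 fold change 0.15, SE 0.23, edgeR adjusted p = 0.764).

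The gene with separated libraries was MSTRG.2028, annotated with an ABC1 family protein, a family of kinase-like proteins whose founding member in yeast is needed to make coenzyme Q. It had 69.2, 56.2 and 71.9 CPM in LM, against 82.5, 85.1 and 80.1 CPM in LS. The LS values lay within a narrow range above all LM values. The mean was 65.8 ± 8.41 CPM in LM and 82.6 ± 2.49 CPM in LS (SD, n = 3 each), a log2 fold change of -0.33 (SE 0.18, edgeR unadjusted p = 0.116, adjusted p = 0.406, between 0.266 and 0.695 over the alternatives). Its annotation rests on proteins of *Dictyostelium* and yeast.

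HscB (MSTRG.2127), a co-chaperone that helps to pass new iron-sulfur clusters to their acceptor proteins, had 48.4, 50.6 and 65.9 CPM in LM, against 61.6, 60.1 and 47.5 CPM in LS, a log2 fold change of -0.04 (SE 0.22). The small heat shock protein of 22 kDa (MSTRG.493), which keeps unfolding proteins soluble, varied most from library to library in this group. It had 34.4, 12.1 and 8.35 CPM in LM, against 0.864, 28.2 and 36.3 CPM in LS. LM3, LS3 and LS6 were high and LS2 had 4 counts, so no difference between the groups could be seen (log2 fold change -0.25, SE 1.17, edgeR adjusted p = 0.931). The median of the 6 genes was 0.03, and its sign turned with the scaling on all genes (-0.22) and without LM4 (-0.01). The gene that was not tested, MSTRG.2022, is annotated with DGS1, an outer membrane protein of *Arabidopsis*. It had 1, 0 and 0 counts in LM, against 27, 0 and 1 counts in LS, so that nearly all of its counts came from LS2. A count of 0 allows up to 3 counts in a library.

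Other metabolic enzymes were 2 genes. The 3-hydroxyisobutyrate dehydrogenase-like gene MSTRG.2039, of a family that acts in valine breakdown, had 59.1, 75.8 and 86.0 CPM in LM, against 101, 75.6 and 106 CPM in LS. LM4 and LS3 were nearly equal (log2 fold change -0.35, SE 0.24, edgeR adjusted p = 0.477). The dihydroorotase gene MSTRG.2221, for a step of pyrimidine synthesis, had 4, 6 and 1 counts in LM and 14, 4 and 7 counts in LS, too few for a test.

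Genes for the ribosome, RNA and DNA of the organelle gave 7 tested members of 13, none of them with separated libraries or an unadjusted p under 0.05. Their log2 fold changes ran between -0.78 and 0.82, with a median of 0.18 that was 0.26 with plant reads alone and -0.06 with all genes, so its sign depended on the scaling. Of all listed plant genes tested, 8.34% were higher and 7.37% lower at an unadjusted p under 0.05. LM libraries lay wholly above LS for 12.9% of them and wholly below for 11.5%. The DEAD-box RNA helicase 9 gene MSTRG.2758, whose relatives in *Arabidopsis* mitochondria help introns to be spliced, had 95, 105 and 112 CPM in LM, against 94.6, 105 and 75.9 CPM in LS. LS6 alone was lower (log2 fold change 0.18, SE 0.20, edgeR adjusted p = 0.666). The recA homolog 3 gene MSTRG.2042, for a recombination protein of organellar DNA, had 38.2, 50.4 and 44.5 CPM in LM, against 33.5, 63.3 and 37.3 CPM in LS, and its means were 44.4 ± 6.08 CPM in LM and 44.7 ± 16.2 CPM in LS (SD, n = 3 each). The gene for ribosomal protein L51 (MSTRG.2341) had 35.1, 64.0 and 19.7 CPM in LM, against 17.5, 33.9 and 29.2 CPM in LS. LM4 stood highest and LM6 lay below LS3 and LS6. The gene for ribosomal protein L12 (MSTRG.271) had a log2 fold change of 0.37 and the pseudouridine synthase 3 gene MSTRG.2488, for an enzyme that modifies RNA bases, one of -0.24 with an SE of 0.97, the widest of this group.

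The gene models annotated first with ribosomal proteins L11 (MSTRG.2257) and L19 (MSTRG.2258) shared a Trinity gene and both descriptions, and they differed in opposite directions. The names L11 and L19 follow the order of the same matches, so they need not mark different proteins. MSTRG.2257 had 1.13, 4.03 and 4.71 CPM in LM, against 0.864, 2.33 and 2.36 CPM in LS (log2 fold change 0.82, SE 0.68, edgeR adjusted p = 0.558). MSTRG.2258 had 3.17, 2.52 and 3.42 CPM in LM, against 4.32, 8.26 and 3.15 CPM in LS (log2 fold change -0.78, SE 0.47, edgeR adjusted p = 0.436). Both were low, with between 19 and 50 counts for the pair in a library, and the libraries overlapped for each. Added together, the locus had a log2 fold change of -0.16 (SE 0.45, edgeR adjusted p = 0.879).

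PPR genes were the largest role group, with 18 members, 8 of them tested. They held the member with the largest difference. MSTRG.1220, annotated with the *Arabidopsis* protein At5g04780, had 50.2, 11.3 and 21.2 CPM in LM, against 2.59, 6.99 and 2.89 CPM in LS. In counts these were 222, 45 and 99 in LM and 12, 33 and 11 in LS. All LM libraries were higher, but LM3 alone stood well above the rest. The mean was 27.6 ± 20.2 CPM in LM and 4.16 ± 2.45 CPM in LS (SD, n = 3 each), 6.64 times as high, with a log2 fold change of 2.72 (SE 0.72, edgeR unadjusted p = 0.009, adjusted p = 0.186). Its log2 fold change was 1.96 without LM3 and at most 3.3 without another library. In DESeq2 its adjusted p was 0.012, and in the other alternatives it stayed above the threshold, up to 0.380.

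MSTRG.1282, annotated with At5g15010, had 9.96, 10.6 and 15.6 CPM in LM, against 21.4, 17.6 and 22.9 CPM in LS. The groups did not overlap, with LM6 nearest to LS3. The mean was 12.1 ± 3.11 CPM in LM and 20.6 ± 2.73 CPM in LS (SD, n = 3 each), a log2 fold change of -0.77 (SE 0.29, edgeR unadjusted p = 0.039, adjusted p = 0.285, between 0.188 and 0.598 over the alternatives). MSTRG.2769, for which At5g15010 is also the first match, came from another Trinity gene and had 21.5, 11.3 and 13.5 CPM in LM, against 23.1, 24.8 and 20.2 CPM in LS. LM3 lay among the LS libraries and the log2 fold change was -0.56 (SE 0.32, edgeR adjusted p = 0.421).

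Of the 8 tested PPR genes, 5 were lower and 3 higher in LM by sign. MSTRG.517 had a log2 fold change of -0.88 with 5.43, 6.55 and 11.8 CPM in LM, against 18.6, 9.31 and 16 CPM in LS, where LM6 exceeded LS3. MSTRG.451 had 42.1, 57.5 and 66.1 CPM in LM, against 61.6, 76.6 and 83.5 CPM in LS, where only LM6 exceeded LS2. MSTRG.366, matched to the same *Arabidopsis* proteins as MSTRG.451, had a log2 fold change of -0.38, close to the -0.42 of MSTRG.451. MSTRG.830 and MSTRG.815 had log2 fold changes of 0.25 and 0.10. The median of the 8 genes was -0.40, or -0.32 with plant reads alone and -0.64 with all genes. Relative to the median of all listed plant genes it was -0.38 in each of these 3 fits, and without single libraries the median was between -0.51 and -0.25.

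The other listed PPR genes, whose descriptions name the chloroplast or no organelle, or, as for MSTRG.2045, both organelles, numbered 28 with 18 tested. Of these, 0 were higher and 1 lower at an unadjusted p under 0.05, beside 8.34% and 7.37% of all listed plant genes tested. The median log2 fold change of these 18 genes was -0.12, beside -0.40 for the members. The lower gene, MSTRG.1011, is annotated with the chloroplast protein At4g31850 and had 20.1, 6.05 and 18.8 CPM in LM, against 44.1, 36.0 and 31.5 CPM in LS (log2 fold change -1.31, SE 0.48, edgeR unadjusted p = 0.036, adjusted p = 0.280). By sign, 7 of the 18 were higher and 11 lower.

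The 10 PPR members that were not tested had few counts, and in a few the counts came mainly from 1 library. MSTRG.190 had 0, 0 and 3 counts in LM, against 1, 77 and 7 counts in LS, so that LS3 gave 87.5% of its 88 counts. MSTRG.1261 had 7, 4 and 7 counts in LM, against 3, 47 and 2 counts in LS, again with LS3 far above the rest. Over the 20 untested members of all roles the total was between 10 and 88 counts in 6 libraries, with a median of 20. Their summed counts were 69, 56 and 75 in LM, against 114, 194 and 98 in LS, and LS3 was raised by MSTRG.190 and MSTRG.1261. More counts fell in LM for 4 of these members and in LS for 16, and the same held on the CPM scale, where 56.1% of the 440 untested listed plant genes were higher in LS. These low counts were not tested.

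Because 29 members shared a Trinity gene with another listed gene, the split of counts between models was compared as well. It does not depend on how libraries are scaled. In 10 Trinity genes, the first and the second listed model both had at least 10 counts in a group, and the share of the pair's counts on the first model was compared between LM and LS. None of the 10 differences passed the adjusted threshold (exact permutation tests, two-sided, adjusted p between 0.4 and 0.9), which 3 libraries against 3 cannot reach.

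For succinate dehydrogenase subunit 4, MSTRG.1055 took 99.7% of the pair's counts in LM3 (95% Wilson interval 98.6% to 99.95%), 60.6% in LM4 (57.2% to 63.9%) and 92.6% in LM6 (90.0% to 94.5%). It took 67.1% in LS2 (63.0% to 70.9%), 61.1% in LS3 (57.3% to 64.8%) and 72.3% in LS6 (67.7% to 76.5%). LM3 and LM6 put nearly all counts on this model, while LM4 had a share like that of LS3. The LS shares also differed, since the intervals of LS3 and LS6 did not meet. The intervals of LM3 and LM6 did not meet those of any other library. The mean share was 84.3% ± 20.8 in LM and 66.9% ± 5.61 in LS (SD, n = 3 each), a difference of 17.5 percentage points (exact permutation test, p = 0.4, adjusted p = 0.5). It was 9.74 points without LM3 and 29.3 points without LM4. In LM3, MSTRG.1056 had 1 count where MSTRG.1055 had 387, and from library to library the models of this locus did not move together.

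In most other pairs, 1 model held nearly all counts in LM as well as in LS. The share on the first model was 99.8% ± 0.0486 in LM and 99.7% ± 0.147 in LS for succinate-CoA ligase (MSTRG.1904 and MSTRG.1905), 98.9% ± 1.16 in LM and 97.5% ± 1.32 in LS for recA homolog 3 (MSTRG.2042 and MSTRG.2043), and 97.3% ± 2.95 in LM and 97.8% ± 1.17 in LS for ribosomal protein L51 (MSTRG.2341 and MSTRG.2342). It was 1.44% ± 0.755 in LM and 2.58% ± 1.26 in LS for the DEAD-box helicase (MSTRG.2757 and MSTRG.2758), and 1.84% ± 0.490 in LM and 1.80% ± 1.1 in LS for the PPR pair MSTRG.450 and MSTRG.451 (SD, n = 3 each). For MSTRG.1904 the whole locus had a log2 fold change of 0.64 (SE 0.25, edgeR unadjusted p = 0.046, adjusted p = 0.297). The minor models had few counts. MSTRG.2043 had 4, 0 and 2 counts in LM, against 5, 3 and 5 counts in LS. MSTRG.2342 had 2, 2 and 6 counts in LM, against 1, 3 and 4 counts in LS. MSTRG.2757 had 8, 8 and 3 counts in LM, against 7, 11 and 12 counts in LS. No minor model separated the groups, and the same was true of MSTRG.450 with 4, 5 and 4 counts in LM, against 9, 4 and 4 counts in LS. MSTRG.516 had 6, 3 and 13 counts in LM, against 6, 5 and 14 counts in LS. The pair MSTRG.516 and MSTRG.517 had 16.5% ± 5.34 on MSTRG.516 in LM and 11.8% ± 6.23 in LS.

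The heat shock pair was the 1 pair whose libraries did not overlap. MSTRG.493 took 92.7%, 87.3% and 90.7% of the counts in LM, against 100%, 93.7% and 95.2% in LS, where its partner MSTRG.494 is annotated with a chloroplast protein. The difference of the means was -6.06 percentage points (exact permutation test, p = 0.1, adjusted p = 0.4). LS2 had 4 counts for this pair, with a Wilson interval between 51% and 100%, and LM4 and LM6 had 55 and 43. For the gene models named L11 and L19, MSTRG.2257 took 26.3%, 61.5% and 57.9% in LM, against 16.7%, 22% and 42.9% in LS, with intervals between 22.5 and 39.0 percentage points wide. For the dihydroorotase pair MSTRG.2220 and MSTRG.2221 a library had at most 16 counts, too few to compare.

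**Figure D4:**
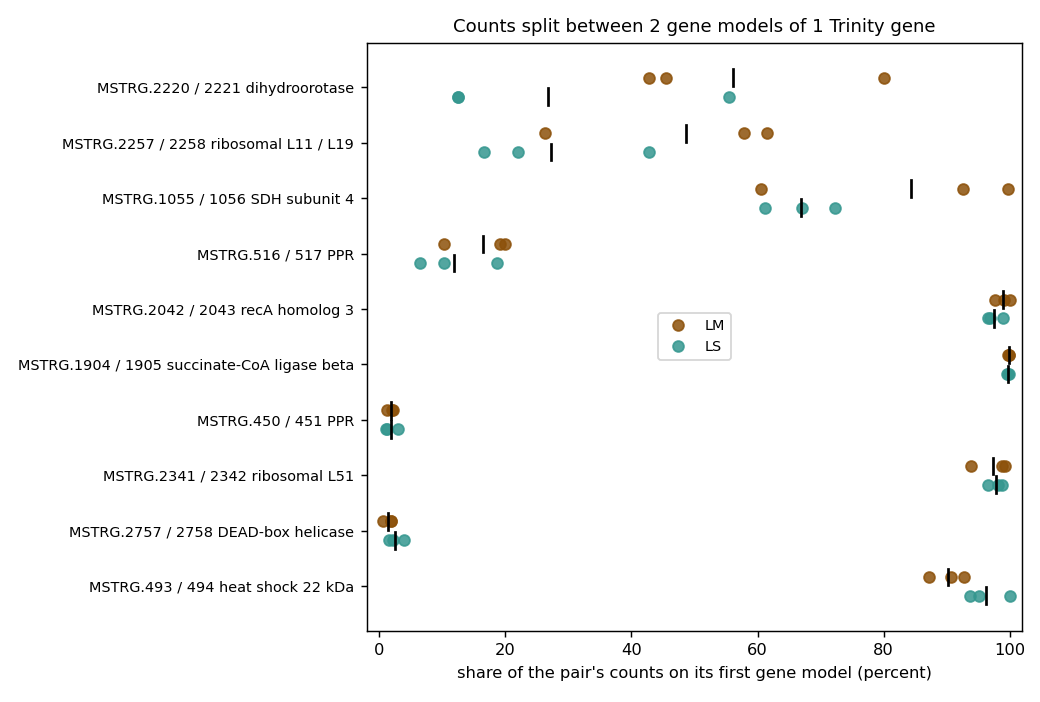
Share of a pair's counts on its first listed gene model in percent (x axis) for 10 Trinity genes (y axis), with a point for each library, LM above LS in each row, and a black tick for the group mean. For succinate dehydrogenase subunit 4, LM3 and LM6 lie above 90% while LM4 lies with the LS libraries, and in 5 pairs 1 model holds nearly all counts in LM and in LS.

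Beside the members, 12 listed genes were annotated with a protein of both mitochondria and chloroplasts, or with a protein of each, and 7 were tested. Nucleoside diphosphate kinase IV (MSTRG.115), which exchanges phosphate groups between nucleotides, had 23.8, 45.4 and 17.8 CPM in LM, against 5.4, 9.74 and 7.62 CPM in LS. All LM libraries were higher, LM4 most of all (log2 fold change 1.93, SE 0.46, edgeR unadjusted p = 0.006, adjusted p = 0.186). The other 6 had unadjusted p above 0.05 and the median of the list was 0.19, which turned to -0.06 with all genes. At an unadjusted p under 0.05, 8.34% of all listed plant genes tested were higher in LM and 7.37% lower.

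A further 16 listed genes were linked to the mitochondrion by a GO term and not by their description, and some were described as chloroplastic or cytoplasmic. Of these 16, 10 were tested. At an unadjusted p under 0.05, 1 was higher and 2 were lower, beside 8.34% and 7.37% of all listed plant genes tested. The BAG family gene MSTRG.1177, of a family of Hsp70 cofactors, had 4.98, 10.3 and 5.56 CPM in LM, against 17.5, 44.9 and 21.3 CPM in LS. The groups did not overlap (log2 fold change -2.0, SE 0.51, edgeR unadjusted p = 0.008, adjusted p = 0.186). The heme-binding protein 2 gene MSTRG.921 had 1.81, 1.26 and 1.93 CPM in LM, against 4.97, 4.23 and 5.52 CPM in LS (log2 fold change -1.54, SE 0.36, edgeR adjusted p = 0.186). The gene MSTRG.302, annotated with the uncharacterized protein RAB5IF, had 45.5, 75.1 and 59.9 CPM in LM, against 36.9, 40.0 and 35.2 CPM in LS (log2 fold change 0.69, SE 0.24, edgeR adjusted p = 0.256). The median of this list was 0.03.

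Members also differed in the organism of the protein that named them. A match to a protein of an organism other than a plant was given for 10 members, 7 of them without any plant match, among them the genes named for ribosomal proteins L11, L12, L19 and L51, HscB and the ABC1 family protein. Of the 7 tested, 0 had an unadjusted p under 0.05 and 1, MSTRG.2028, had separated libraries, and the median log2 fold change was -0.01, beside 0.09 for the 21 tested members with plant matches alone. Of all listed plant genes tested, 8.34% were higher and 7.37% lower at that p. LM libraries lay wholly above LS for 12.9% of them and wholly below for 11.5%. The plant taxon of all 48 genes is the one assigned to the transcripts by the authors.

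Across the 28 tested members, the highest value fell in LM4 for 9 and the lowest in LS2 for 11. Among all listed plant genes tested, LM4 was highest for 18.4% and LS2 lowest for 24.3%. LM6 was lowest for 0 members and LM3 for 8, beside 10.6% and 18.6% of all listed plant genes tested.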

How the data were processed

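Libraries of mycorrhizal (LM) and non-mycorrhizal (LS) roots, 3 each, were made with a kit that does not mark strand. The authors used bbduk for trimming, Trinity for assembly, HISAT2 2.0.4 for alignment, StringTie 1.3.5 for merging of transcripts and HTSeq for counting, and deposited the counts without normalization. How counting treated strand is not given in the sources used here, so overlapping and antisense genes may share reads. Rows that name no gene held 68.3% to 72.8% of the counts of a file and were left out. Replicates of a group differed beyond sampling noise (chi-square per degree of freedom at least 36.3).

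Gene descriptions and library sizes (reads aligned to plant transcripts) came from the supplement, of whose plant table the first 1159 rows were used. The fold changes and p-values it holds were not used. All listed genes were fitted in R 4.3.3 with edgeR 4.0.16 (filterByExpr, minimum count 10 and total 15, then TMM, quasi-likelihood test, no covariates, Benjamini-Hochberg over 719 genes, threshold 0.05). SEs were the absolute log2 fold change over the square root of F. Scripts were tested on simulated data. Alternatives were DESeq2 1.42.0, limma-voom (limma 3.58.1), other scalings and filters, library leave-outs, a replicate block and counts summed per Trinity gene.

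Values in every library are given for members with an unadjusted p under 0.05, with separated groups, in a compared pair, or tested and of the respiratory chain, citrate cycle, import or membranes, and otherwise as range, count or example. Of other lists, genes with an unadjusted p under 0.05 are named, and all tested genes of oxidative phosphorylation. Members and lists were chosen with earlier results of these data known, so no list was tested.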

Additional observations from a re-analysis of the deposited data

How the results depend on the processing

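The count of 0 members at an adjusted p under 0.05 held in every alternative but DESeq2, which called 1. With all genes of the files setting the scale, 1 member was higher and 0 lower at an unadjusted p under 0.05, 2 were separated above and 5 below, and the medians were 0.035 for the respiratory chain and citrate cycle, -0.215 for import, folding and membranes, -0.639 for PPR genes and -0.197 for all members. In that fit 688 of 22268 genes were called, and 0 of 28 tested members. Of the listed plant genes tested in it, 99 of 722 had an unadjusted p under 0.05 in either direction, and the median log2 fold change of all 722 was -0.26. The share of listed plant genes with separated libraries is not given for that fit or for the leave-outs below. The count of members lower at an unadjusted p under 0.05 was 0 with plant reads alone and 2 with DESeq2. In either direction, 114 of 719 listed plant genes had such a p with plant reads alone and 184 of 1137 with DESeq2. Without single libraries, between 1 and 3 members were higher and between 0 and 2 lower at an unadjusted p under 0.05, between 4 and 10 were separated above and between 3 and 5 below, and the median for import, folding and membranes was between -0.013 and 0.173. The cause of these changes was not tested.

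A fit with a replicate block gave 0 calls, 2 members higher and 0 lower at an unadjusted p under 0.05. Among the listed plant genes, 101 of 719 had such a p in that fit, in either direction. Whether the labels' numbers pair the samples could not be decided, because the correlations were small and rested on 3 libraries in each group. The deviations correlated by -0.056 for LM3 with LS2 (replicate 1 of each group), 0.157 for LM4 with LS3 and 0.138 for LM6 with LS6. LM4 and LM6 correlated best with the LS library of their own number, and LM3 did not. Paired by the number in the library's name, LM3 and LS3 correlated by 0.085.

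Of 16 members followed one by one, 8 kept their sign in every alternative. Their signs turned to -0.10 for MSTRG.1603, -0.09 for MSTRG.2033 and -0.15 for MSTRG.2707 with all genes, to 0.02 for MSTRG.209 and 0.05 for MSTRG.2127 with plant reads alone, to 0.01 for MSTRG.2127 without the filter, to 0.68 for MSTRG.493 with limma-voom, and to 0.18 for MSTRG.1056 and -0.16 for MSTRG.2257 with counts summed per Trinity gene. Without single libraries the log2 fold change ran between -3.20 and 0.14 for MSTRG.1056, -0.04 and 0.30 for MSTRG.2033, -0.29 and 0.19 for MSTRG.209, -0.19 and 0.05 for MSTRG.2127, -0.16 and 0.33 for MSTRG.2707, and -1.06 and 0.34 for MSTRG.493. Among the pair shares, the difference ran between -0.31 and 0.68 percentage points for MSTRG.450 and MSTRG.451 and between -1.52 and 1.15 for MSTRG.2341 and MSTRG.2342, and the other 8 kept their sign. At this depth, 20 of the 48 members had too few counts to be tested.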
